A study of Mus musculus with 12 samples.

Results

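The genes described here were 39 mouse genes of DNA replication and S phase, taken as a list of names that was drawn up with earlier results of these arrays known. A gene was followed through a probe whose RefSeq accession mapped to it, and where several probes did so the brightest over 12 arrays stood for the gene. Probes were matched for 38 of the 39 genes, Gins1 being the exception, out of 14745 genes tested in the series. The 38 genes were well above background on all 12 arrays. In 7 of them a second probe was present, and its fold changes had the same sign in the miR-29b comparison.

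RNA was measured in helper T cells of C57BL/6 mice, 7 weeks old, activated with antibodies to CD3 and CD28 for 65 hours and then held in IL-2 for 48 hours. The 4 groups were Dgcr8-deficient cells given miR-29b, Dgcr8-deficient cells given a control miRNA, wild-type cells given miR-29 inhibitors, and wild-type cells given control inhibitors, with 3 arrays each. Cells of every group, controls included, were electroporated on days 1 and 4 and harvested on day 5. Mice were numbered 2, 3 and 4 within a genotype, and both arrays of a number were taken to come from cells of 1 mouse. The design text says so for the Dgcr8-deficient mice. Dgcr8 is the partner of the nuclease Drosha in microRNA processing, so loss of it is known to deplete most mature microRNAs, which were not measured here. The labels give no driver or cell type for the Dgcr8 deletion, so which cells lost the gene was not settled from them.

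DNA replication starts when the origin recognition complex, with Cdc6 and Cdt1, loads the Mcm2 to Mcm7 helicase in G1. In S phase Cdc45 and the GINS complex activate that helicase, primase and the polymerases copy both strands, and the clamp Pcna, placed by replication factor C, holds the polymerases on DNA. Many of these genes are transcribed by E2F factors at the G1/S transition, and activated T cells turn the program on before they divide.

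The agent of the first comparison belongs to the miR-29 family, whose 3 mature forms share a seed, and the sequences are shown because the seed (bases 2 to 8, in capitals) is what pairs with target RNAs. They are the RefSeq sequences on GRCm38.p6, written 5′ to 3′, and the labels do not give the sequence of the oligonucleotides used.
miR-29a-3p (chr6:31062673-31062694, minus strand): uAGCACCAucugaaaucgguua
miR-29b-3p (chr6:31063025-31063047, minus strand, with a second copy on chr1:195037091-195037113, plus strand): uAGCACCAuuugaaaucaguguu
miR-29c-3p (chr1:195037600-195037621, plus strand): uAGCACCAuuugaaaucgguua

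Promoter sequence is a property that the list of names did not use. RefSeq promoter windows on GRCm38.p6, running from 250 bases before to 50 bases after a start site, were matched for 31 of the 39 genes, in 34 windows. One of the E2F words TTTCCCGC, TTTGGCGC, TTTCGCGC or TTTGCCGC, on either strand and with overlapping matches counted, was present in 12 of the 34 windows (35.3%). The share was 3.37% of 14884 windows of the genes tested and 2.26% of all 32851 windows of the table. The CCAAT word was in 17 of the 34 windows (50%) of the windows of the replication genes and in 37.6% of those of the genes tested, and the word TTTGAA, the core of the cell cycle homology region, was in 11.8% and 13.6%. The median GC content of the windows was 58.8% and 59.0%. The 12 genes with an E2F word were Orc1, Cdc6, Cdt1, Mcm3, Mcm5 and Mcm6 among the licensing genes, and Gins3, Pola1, Pold1, Pole2, Rfc3 and Lig1. A match is a description of the letters and not a shown binding site.

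Windows with the E2F words in capitals are given for 4 genes of licensing, helicase activation and clamp loading that the results below return to, with the window of Rfc5, in which none of these words was present, beside them.
Mcm5, helicase subunit (chr8:75109259-75109558, plus strand): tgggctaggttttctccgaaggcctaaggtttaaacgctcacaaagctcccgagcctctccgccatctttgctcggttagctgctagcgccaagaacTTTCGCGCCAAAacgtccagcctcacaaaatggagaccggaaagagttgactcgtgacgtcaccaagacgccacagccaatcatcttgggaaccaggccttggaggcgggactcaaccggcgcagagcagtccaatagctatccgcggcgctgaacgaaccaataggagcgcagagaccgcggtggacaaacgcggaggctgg
Mcm6, helicase subunit (chr1:128359656-128359955, minus strand): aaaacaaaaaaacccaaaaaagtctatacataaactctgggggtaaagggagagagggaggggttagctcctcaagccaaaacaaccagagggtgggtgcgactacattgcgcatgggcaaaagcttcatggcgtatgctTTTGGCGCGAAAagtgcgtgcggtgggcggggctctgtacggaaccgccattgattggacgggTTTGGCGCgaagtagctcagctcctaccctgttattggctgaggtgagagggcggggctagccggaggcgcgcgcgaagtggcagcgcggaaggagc
Rfc3, clamp loader subunit (chr5:151651159-151651458, minus strand): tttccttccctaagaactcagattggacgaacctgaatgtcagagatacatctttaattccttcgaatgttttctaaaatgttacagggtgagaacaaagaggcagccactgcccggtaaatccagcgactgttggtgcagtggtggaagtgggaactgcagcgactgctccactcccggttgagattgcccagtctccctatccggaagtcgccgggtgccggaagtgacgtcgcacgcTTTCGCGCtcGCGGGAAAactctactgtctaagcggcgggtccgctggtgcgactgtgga
Gins3, GINS subunit (chr8:95633309-95633608, plus strand): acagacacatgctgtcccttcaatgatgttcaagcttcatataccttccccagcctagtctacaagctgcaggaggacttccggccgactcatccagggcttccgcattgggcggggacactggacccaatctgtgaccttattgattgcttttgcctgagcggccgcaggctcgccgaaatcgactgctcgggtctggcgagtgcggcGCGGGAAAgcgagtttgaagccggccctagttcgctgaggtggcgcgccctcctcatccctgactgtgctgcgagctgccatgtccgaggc
Rfc5, clamp loader subunit (chr5:117388974-117389273, minus strand): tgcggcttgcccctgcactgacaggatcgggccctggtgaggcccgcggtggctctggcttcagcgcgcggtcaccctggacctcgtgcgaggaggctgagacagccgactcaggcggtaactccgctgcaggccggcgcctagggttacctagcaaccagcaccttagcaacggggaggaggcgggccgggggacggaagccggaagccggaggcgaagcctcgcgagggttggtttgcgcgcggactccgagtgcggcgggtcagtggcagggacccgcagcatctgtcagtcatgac

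Levels below are log2 signals minus the 75th percentile of the array, and a change is a log2 fold change with its SE from limma (n = 3 per group). An array had 27377 to 32218 of its 41174 probes above background. Dgcr8 itself had levels of -0.67, -1.02 and -0.35 in Dgcr8-deficient cells with miR-29b and -0.74, -1.24 and -0.15 with the control miRNA, against -0.08, 0.74 and -0.13 in wild-type cells with inhibitors and -0.16, 1.0 and 0.20 with control inhibitors. The genotypes overlapped slightly, and the difference between controls was -1.06 ± 0.38 (limma adjusted p = 0.0723, and 0.0476 with the mouse as a random block). All 7 markers of helper T cells were measured, with Cd4 between -0.38 and 0.17. Markers of B cells moved with genotype: the summed linear signal of 4 of 4 was 5.17 to 10.3 and 4.18 to 9.16 in the Dgcr8-deficient groups with miR-29b and control, against 0.431 to 0.559 and 0.326 to 0.481 in the wild-type groups with inhibitors and control, where 1 is the 75th percentile of the array. The 4 NK cell markers, of which Klrd1 was lower and the other 3 had a higher mean in Dgcr8-deficient controls, summed to 0.178 to 0.517 and 0.269 to 0.653 in the Dgcr8-deficient groups with miR-29b and control, against 1.80 to 3.82 and 1.24 to 2.87 in the wild-type groups. Markers of CD8 T cells (1 of 2 measured), myeloid cells (3 of 5) and erythroid cells (2 of 3) summed to 0.396 or less on each array. Both arrays of Dgcr8-deficient mouse 3 stood apart in 4 Y-linked genes, whose summed signal was 0.0186 with miR-29b and 0.0136 with the control, against 7.20 or more on the other 10 arrays. Its miR-29b array also had 1458 spots marked as outliers, against 68 to 193 on the other 11.

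Both arrays of Dgcr8-deficient mouse 4 and of wild-type mouse 3 were read on a second scan day and shared a slide. Against the mean of the other arrays of their group, 26 of the 38 replication genes were lower on these arrays in all 4 groups, and Pole2 and Ccne2 were higher in all 4. The share of all genes lower in all 4 was not counted. In Dgcr8-deficient cells with miR-29b and control 36 of 38 and 35 of 37 were lower, where 60.8% and 56.9% of all genes were. In wild-type cells with inhibitors and control 35 and 27 of 38 were lower, where 54.0% and 55.9% of all genes were. The median difference was -0.78 and -0.54 in Dgcr8-deficient cells with miR-29b and control, and -0.51 and -0.27 in wild-type cells with inhibitors and control, while all genes had medians of -0.17, -0.10, -0.05 and -0.08. E2f1, a transcription factor of the program itself, had among the largest differences. They were -1.40 and -1.69 in Dgcr8-deficient cells with miR-29b and control, and -1.40 and -0.99 in wild-type cells with inhibitors and control. The levels of E2f1 were 1.70, 1.21 and 0.05 with miR-29b and 1.89, 1.63 and 0.07 with the control in Dgcr8-deficient mice 2, 3 and 4. In wild-type mice 2, 3 and 4 they were 1.88, 0.53 and 1.98 with inhibitors and 1.78, 0.81 and 1.82 with control inhibitors. The 4 arrays of the second scan day were the 4 lowest of the 12. Mouse, slide and scan day cannot be told apart here, because both arrays of a mouse shared them. For this reason differences within a mouse are given beside those between group means.

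**Figure D1:**
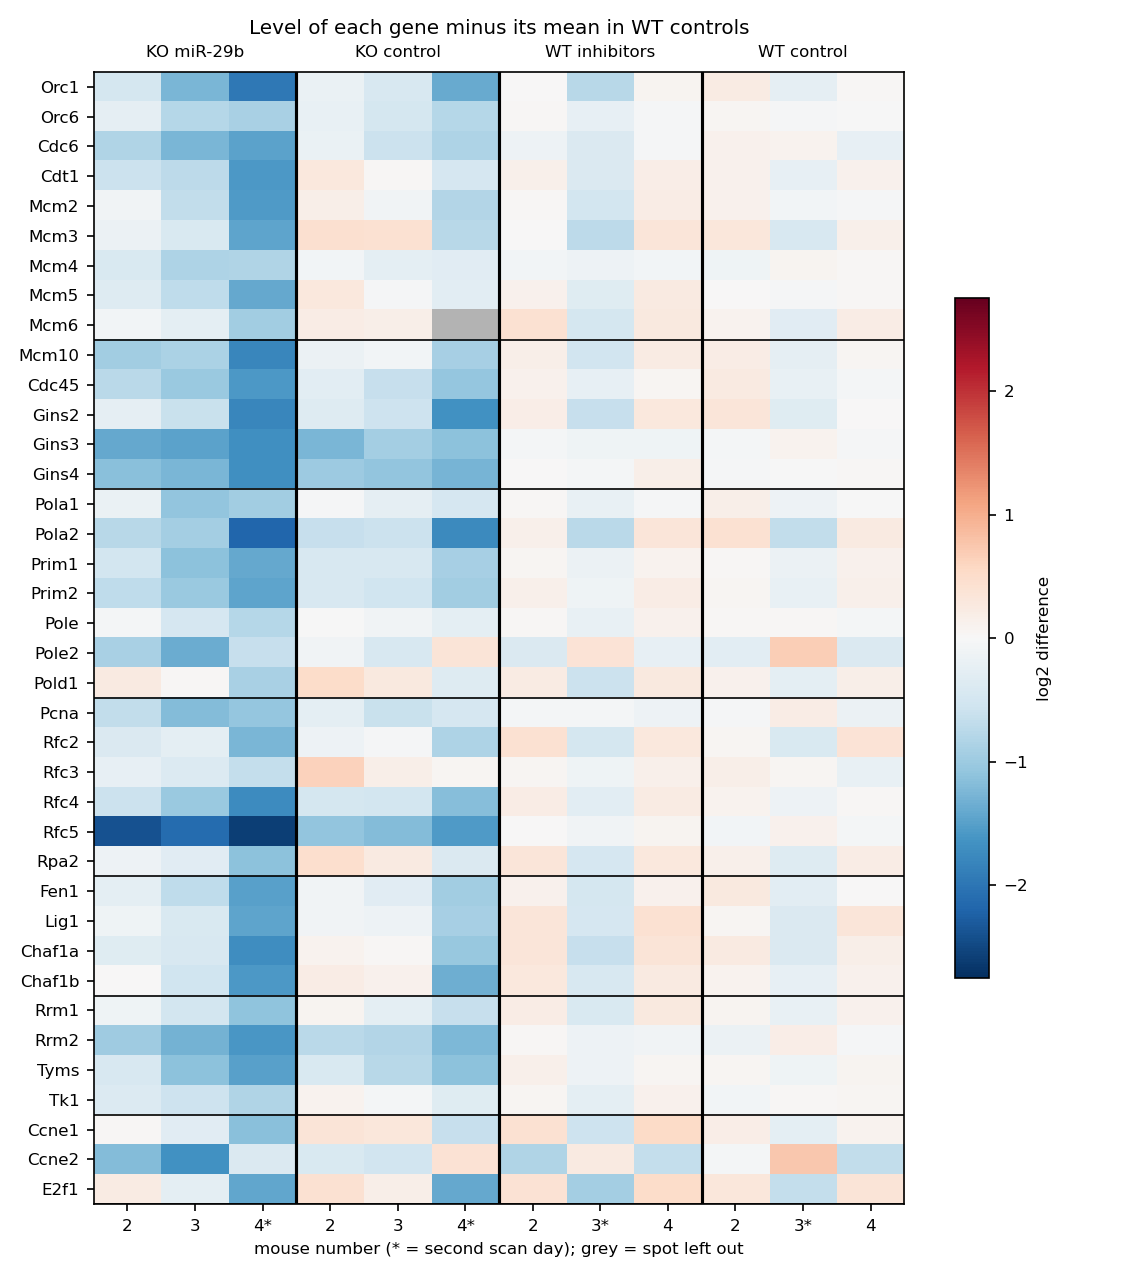
Level of each of the 38 replication genes on each array minus the mean of that gene in wild-type controls (log2), with arrays as columns by group and mouse and genes as rows by role. Columns marked with an asterisk are the second scan day, and they are bluer than the other columns of their group for most genes. The miR-29b columns are bluer than the control columns of the same Dgcr8-deficient mice.

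The first comparison set miR-29b against a control miRNA in Dgcr8-deficient cells. All 38 replication genes had a lower mean with miR-29b than with the control, with log2 fold changes of -1.09 to -0.02 and a median of -0.47. Over all 14745 genes the median was 0.10 and 38.3% were negative. With groups of 3 mice whose levels differed, 1 gene passed the threshold on group means, Rfc5, and the background was 1.19% of all genes called lower and 1.01% called higher. A further 10 had unadjusted p-values below 0.05 and did not pass. With Rfc5 these were 28.9% of the 38, where 14.4% of all genes had such p-values. The summed linear signal of the 7 helper T cell markers was 411 to 476 with miR-29b and 302 to 331 with the control. Of the 7, 6 had a positive fold change and 0 passed on group means. With the mouse as a block 4 of them rose, where 13.1% of all genes did. The part of these markers in the result was not tested. Bulk RNA cannot tell fewer cells in S phase from less of these RNAs per cell.

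The direction held within mice. Of the 37 genes with all pairs of arrays, 36 were lower with miR-29b in all 3 Dgcr8-deficient mice, where 21.6% of all genes were. The exception was Gins2, at 0.11 in mouse 2. The median difference of the replication genes was -0.27 in mouse 2, -0.52 in mouse 3 and -0.53 in mouse 4, against medians of 0.11, 0.12 and 0.07 over all genes. With the mouse as a block, which tests these within-mouse differences, 19 of the 38 genes fell and 0 rose, while 9.39% of all genes were called lower and 13.1% higher. Values called blocked below are adjusted p-values of that fit. Without mouse 3, the mouse with the outlier spots, 8 replication genes fell in the blocked fit, against 6.14% of all genes, and the median fold change was -0.39. Without mouse 2 the count was 11 (3.84% of all genes) and without mouse 4, the second scan day, it was 4 (2.96%). Rfc5, Cdt1, Mcm10 and Pole2 fell in all 3 of these fits.

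**Figure D2:**
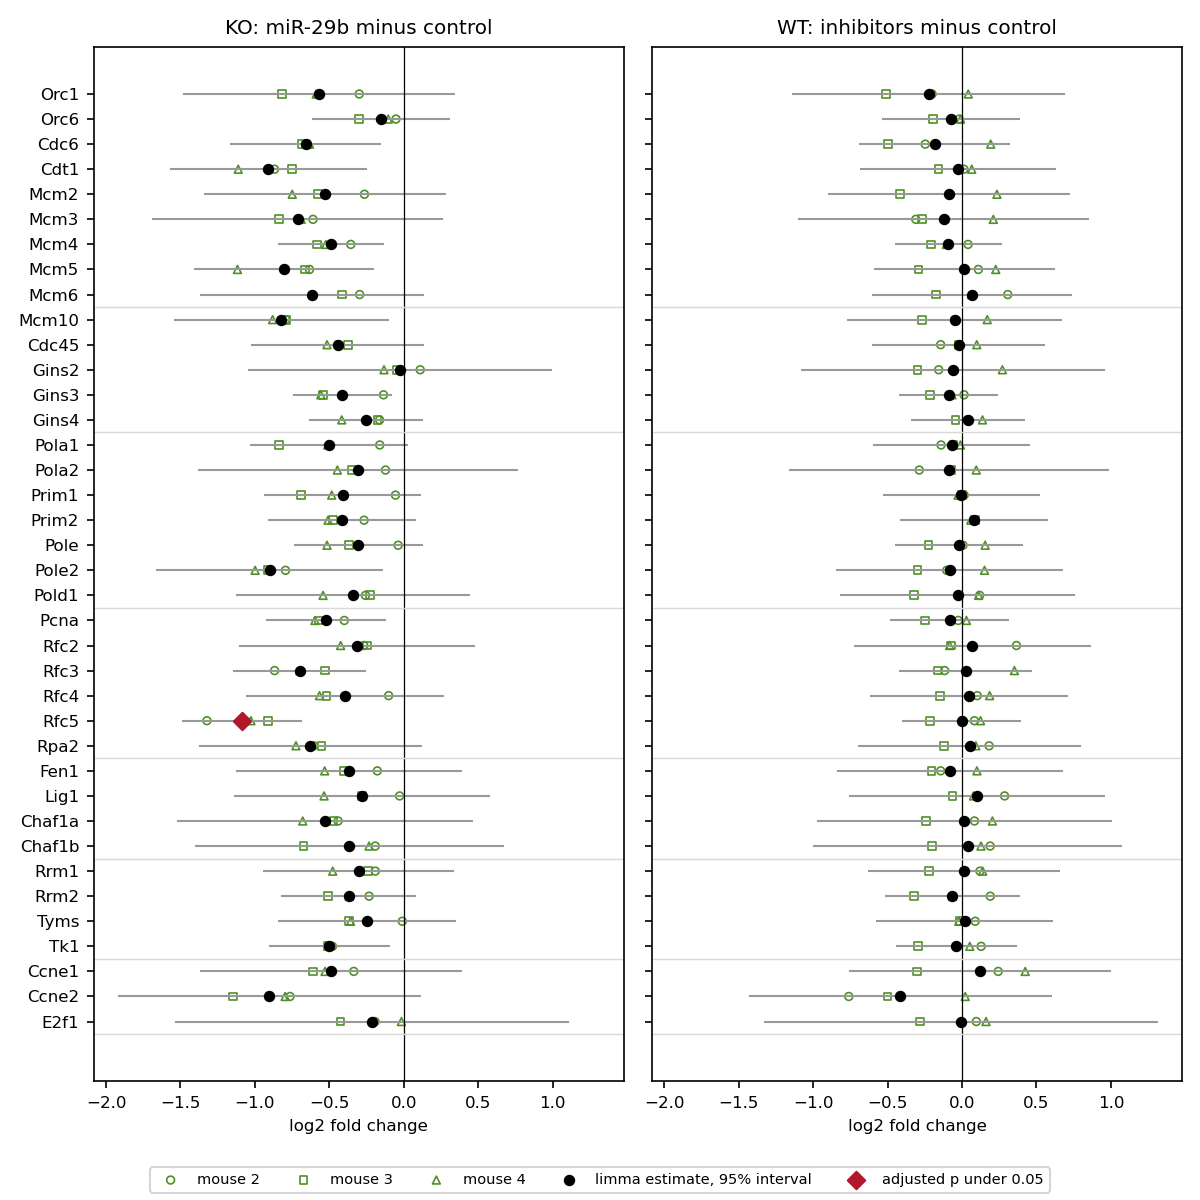
Log2 fold change of each replication gene with miR-29b in Dgcr8-deficient cells (left) and with miR-29 inhibitors in wild-type cells (right), with the limma estimate and 95% interval and the difference in each mouse as open symbols. Estimates lie below 0 for all 38 genes on the left, with Rfc5 marked as past the threshold, and around 0 on the right.

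Origin licensing is the step with the most genes here, and its 9 genes had fold changes of -0.91 to -0.15 with a median of -0.61. In the blocked fit 6 of the 9 fell, Orc1, Cdc6, Cdt1, Mcm3, Mcm4 and Mcm5, and 0 of 9 passed on group means. Cdt1, which brings the Mcm helicase to origins, had levels of 4.94, 4.81 and 3.95 with miR-29b and 5.80, 5.56 and 5.06 with the control. In wild-type cells Cdt1 stood at 5.66, 5.13 and 5.70 with inhibitors and 5.65, 5.29 and 5.63 with control inhibitors. Each miR-29b array was below each control array of the same genotype, and the wild-type groups overlapped. The fold change of Cdt1 was -0.91 ± 0.30, with an adjusted p of 0.175 on group means and 0.00467 in the blocked fit.

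Among the helicase subunits Mcm5 had levels of 5.45, 5.11 and 4.39 with miR-29b and 6.08, 5.77 and 5.51 with the control. Its wild-type levels were 5.92, 5.47 and 6.05 with inhibitors and 5.81, 5.76 and 5.82 with control inhibitors. The Dgcr8-deficient groups did not overlap, and the controls of both genotypes overlapped. Mcm4 had levels of 5.44, 5.01 and 5.04 with miR-29b and 5.80, 5.59 and 5.57 with the control. In the wild type it was at 5.79, 5.74 and 5.80 with inhibitors and 5.75, 5.95 and 5.91 with control inhibitors. Mcm4 had a narrow spread within groups, and again the miR-29b arrays were the 3 lowest of the 12. The fold changes were -0.80 ± 0.27 for Mcm5 and -0.49 ± 0.16 for Mcm4, with adjusted p of 0.191 and 0.180 on group means and 0.0153 and 0.0160 in the blocked fit. Mcm2 had levels of 3.60, 3.02 and 2.14 with miR-29b and 3.87, 3.60 and 2.89 with the control, against 3.73, 3.21 and 3.91 with inhibitors and 3.82, 3.63 and 3.67 with control inhibitors. Its groups overlapped, its difference was below 0 in all 3 mice, and it did not pass either fit (fold change -0.53 ± 0.37, adjusted p = 0.603, blocked 0.0546). For Mcm6 the control spot of mouse 4 was marked as an outlier and left out, while the miR-29b array of that mouse stayed in. That array differed by -0.78 from the mean of the other miR-29b arrays. The fold change of Mcm6 was -0.61 on group means and -0.36 in the blocked fit, and it passed in neither. The value on group means therefore also holds the low level of mouse 4.

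Cdc6, the loader that acts with the origin recognition complex, had levels of 1.21, 0.78 and 0.57 with miR-29b and 1.87, 1.47 and 1.21 with the control. In wild-type cells Cdc6 was at 1.91, 1.66 and 2.03 with inhibitors and 2.16, 2.16 and 1.84 with control inhibitors. The lowest control array equalled the highest miR-29b array to 2 decimals, and the difference was nearly constant over mice, at -0.66, -0.68 and -0.63. Orc1, the largest subunit of the origin recognition complex, had levels of -0.44, -1.21 and -1.92 with miR-29b and -0.14, -0.39 and -1.33 with the control. Orc1 in the wild type was at 0.07, -0.71 and 0.11 with inhibitors and 0.27, -0.20 and 0.07 with control inhibitors. The Dgcr8-deficient groups overlapped for Orc1 because mouse 4 was low on both arrays. Blocked adjusted p-values were 0.0220 for Cdc6 and 0.0388 for Orc1, against 0.2 and 0.626 on group means. Mcm3, a helicase subunit, had a fold change of -0.71 ± 0.44 (adjusted p = 0.54, blocked 0.0142). Orc6, a further subunit of that complex, had the change nearest 0 of the step (-0.15 ± 0.21).

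Of the 5 genes of helicase activation, Mcm10, Cdc45 and Gins3 fell in the blocked fit (adjusted p of 0.00613, 0.0169 and 0.0475), and 0 of 5 passed on group means. Mcm10, a scaffold needed to open the helicase, had the largest fold change of the step, -0.82 ± 0.32, with differences of -0.79, -0.79 and -0.88 in mice 2, 3 and 4. Its levels were 3.10, 3.18 and 2.25 with miR-29b and 3.89, 3.97 and 3.13 with the control, against 4.20, 3.53 and 4.27 with inhibitors and 4.25, 3.79 and 4.10 with control inhibitors in the wild type. The Dgcr8-deficient groups overlapped because control 4 lay just below the miR-29b array of mouse 3. Gins3, a subunit of the 4-part GINS complex, had levels of -0.01, -0.09 and -0.29 with miR-29b and 0.12, 0.45 and 0.27 with the control. The wild-type levels of Gins3 were 1.34, 1.27 and 1.28 with inhibitors and 1.33, 1.49 and 1.34 with control inhibitors. Its 3 miR-29b arrays lay below the 3 controls, and all 6 lay far below the wild type. The GINS subunits were not alike: Gins3 had a fold change of -0.41 ± 0.15, Gins4 -0.25 ± 0.17 and Gins2 -0.02 ± 0.46, and Gins2 had no common direction over mice.

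The 7 polymerase and primase genes had a median of -0.41, none passed on group means, and Pola1, Prim2 and Pole2 fell in the blocked fit (adjusted p of 0.0443, 0.0195 and 0.00567). Pole2, the second subunit of polymerase epsilon, had a fold change of -0.90 ± 0.34, against -0.31 ± 0.20 for the catalytic subunit Pole. Its levels were 0.24, -0.22 and 0.49 with miR-29b and 1.03, 0.69 and 1.49 with the control, against 0.75, 1.51 and 0.90 with inhibitors and 0.85, 1.81 and 0.75 with control inhibitors. The Dgcr8-deficient groups did not overlap for Pole2 although mouse 4, the second scan day, was the highest of each. Prim2, the large primase subunit, had levels of 2.15, 1.82 and 1.39 with miR-29b and 2.41, 2.29 and 1.90 with the control. In wild-type cells Prim2 was at 2.99, 2.74 and 3.05 with inhibitors and 2.90, 2.65 and 2.99 with control inhibitors. The differences of Prim2 were -0.27, -0.47 and -0.51 in mice 2, 3 and 4, and its groups overlapped. Pola2 and Prim1, further subunits of the polymerase alpha and primase complex, and Pold1, the catalytic subunit of polymerase delta, had fold changes of -0.31 ± 0.49, -0.41 ± 0.24 and -0.34 ± 0.36 and passed neither fit.

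The clamp, its loader and the single-strand binding protein held the gene with the largest change of all 38. Rfc5, a small subunit of replication factor C, had levels of 1.69, 1.99 and 1.51 with miR-29b and 3.01, 2.90 and 2.53 with the control. Rfc5 in wild-type cells was at 4.11, 4.00 and 4.16 with inhibitors and 4.02, 4.21 and 4.04 with control inhibitors. The arrays fell into separate bands, miR-29b lowest, its control between, and all 6 wild-type arrays highest. Rfc5 fell by 1.09 ± 0.18 on the log2 scale with miR-29b, 2.13-fold lower, with an adjusted p of 0.0156 on group means and 0.00449 in the blocked fit. On group means the call was lost without either array of mouse 2, without the control array of mouse 3 or without the miR-29b array of mouse 4 (adjusted p up to 0.0752), while the fold change stayed between -1.29 and -0.97 over all alternatives. It was also lost without both arrays of Dgcr8-deficient mouse 2, 3 or 4 (adjusted p of 0.168, 0.053 and 0.0618) or of wild-type mouse 2 or 4 (0.0768 and 0.0717), and with the arrays of the comparison fitted alone (0.244).

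Rfc3, another loader subunit, had levels of 0.92, 0.77 and 0.50 with miR-29b and 1.79, 1.30 and 1.20 with the control. In the wild type Rfc3 was at 1.19, 1.03 and 1.29 with inhibitors and 1.31, 1.19 and 0.94 with control inhibitors. The miR-29b arrays were the 3 lowest of the 12, and the Dgcr8-deficient control reached above the wild type. The fold change of Rfc3 was -0.70 ± 0.20 (adjusted p = 0.120, blocked 0.0167). Pcna, the sliding clamp, had levels of 5.94, 5.43 and 5.55 with miR-29b and 6.34, 6.00 and 6.15 with the control. Its wild-type levels were 6.56, 6.56 and 6.48 with inhibitors and 6.58, 6.81 and 6.45 with control inhibitors. Here too the 3 miR-29b arrays were the lowest, with the Dgcr8-deficient control next. Pcna had a fold change of -0.52 ± 0.18 (adjusted p = 0.199, blocked 0.0144), and Rpa2, a subunit of the single-strand binding protein, -0.63 ± 0.34 (0.460, blocked 0.00886). Rpa2 had levels of 2.56, 2.40 and 1.58 with miR-29b and 3.17, 2.96 and 2.31 with the control, against 3.03, 2.24 and 3.00 with inhibitors and 2.85, 2.36 and 2.91 with control inhibitors. Mouse 4 was the lowest on both sides, so the groups overlapped while each mouse was lower with miR-29b. The subunits Rfc2 and Rfc4 passed neither fit, at -0.31 ± 0.36 and -0.40 ± 0.30.

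Of the 4 genes that process flaps, seal nicks or assemble chromatin, Chaf1a, the large subunit of chromatin assembly factor 1, fell in the blocked fit (-0.53 ± 0.45 on group means, blocked adjusted p = 0.0234). The flap nuclease Fen1, the ligase Lig1 and Chaf1b had fold changes of -0.37, -0.28 and -0.37 and passed neither fit. For nucleotide supply, Tk1, the thymidine kinase, had levels of 4.17, 3.99 and 3.71 with miR-29b and 4.65, 4.50 and 4.22 with the control. Tk1 in the wild type was at 4.59, 4.27 and 4.66 with inhibitors and 4.47, 4.57 and 4.61 with control inhibitors. The Dgcr8-deficient groups just failed to overlap, and the differences of -0.48, -0.51 and -0.51 were nearly equal in the 3 mice. Tk1 fell in the blocked fit (-0.50 ± 0.18, adjusted p = 0.231, blocked 0.0220), while the ribonucleotide reductase subunits Rrm1 and Rrm2 and the thymidylate synthase Tyms, at -0.30, -0.37 and -0.25, passed neither.

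Among the G1/S regulators Ccne2, cyclin E2, had levels of -1.99, -2.48 and -1.19 with miR-29b and -1.23, -1.33 and -0.40 with the control. In wild-type cells it was at -1.62, -0.56 and -1.47 with inhibitors and -0.86, -0.06 and -1.49 with control inhibitors. The spread between mice was wide and the groups overlapped by a little, and the differences within mice 2, 3 and 4 were -0.76, -1.15 and -0.80. The fold change was -0.90 ± 0.46 (adjusted p = 0.421, blocked 0.0159). Ccne1, cyclin E1, had -0.49 ± 0.40 and E2f1 -0.21 ± 0.60, and they passed neither fit. E2f1 lay among the smallest changes of the list, and its sign turned without the control array of mouse 2 or 3 or the miR-29b array of mouse 4 (0.14, 0.0067 and 0.26).

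**Figure D3:**
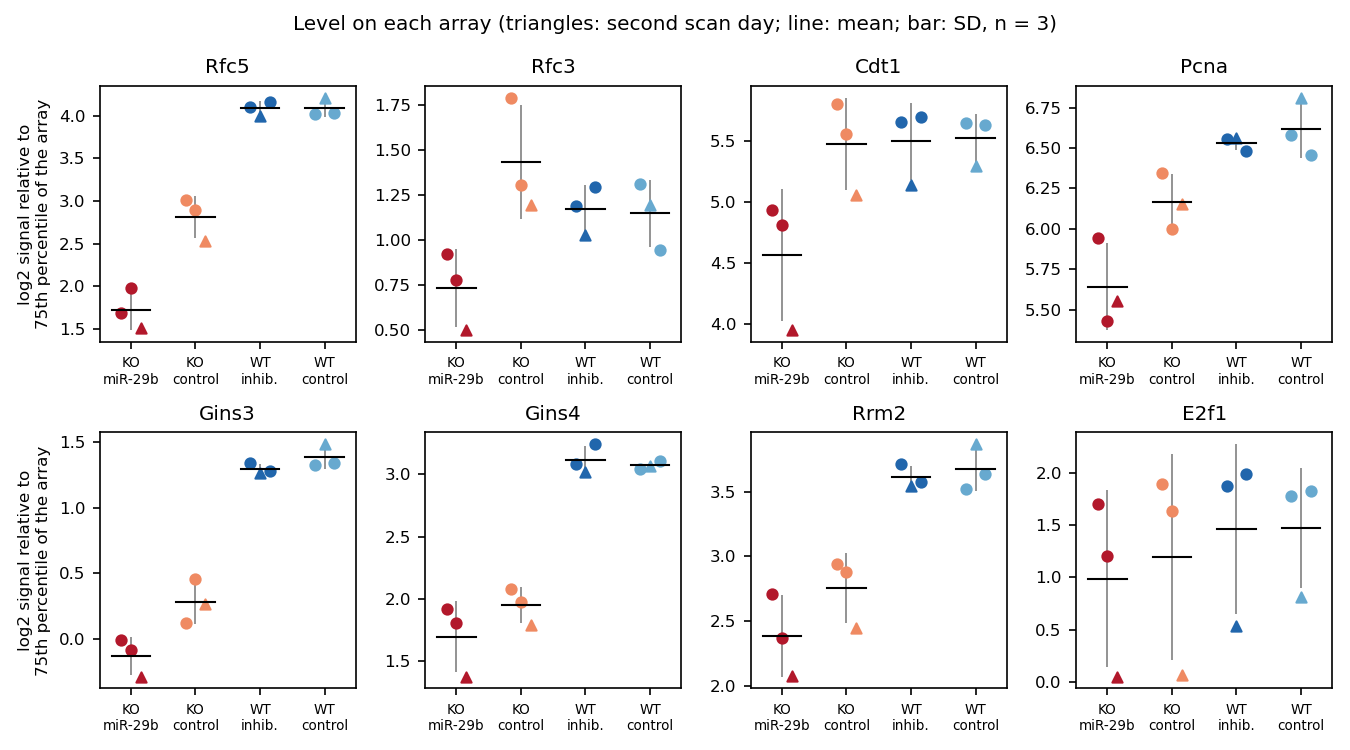
Levels of 8 replication genes on each array (log2 signal minus the array's 75th percentile), with group means as lines and SD as bars (n = 3), and triangles for the second scan day. For Rfc5, Rfc3, Cdt1 and Pcna the 3 miR-29b arrays lie below the 3 control arrays of Dgcr8-deficient cells. For Gins3, Gins4, Rrm2 and Rfc5 all Dgcr8-deficient arrays lie below all wild-type arrays.

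In all, 10 of the 38 genes had Dgcr8-deficient groups that did not overlap, all with miR-29b lower, where 6.49% of all genes did so and 9.77% did so with miR-29b higher. They were Cdt1, Mcm4, Mcm5, Mcm6 (on 2 control arrays), Gins3, Pole2, Pcna, Rfc3, Rfc5 and Tk1. For Mcm6 the control array left out was that of mouse 4, the second scan day, so its groups could stay apart more easily. The sign of all 38 fold changes was also negative under quantile normalization, median scaling, normexp correction and in the authors' deposited table. These scalings moved the median of all genes by up to 0.20 between them, and relative to that median the replication genes had medians of -0.58 to -0.47.

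The second comparison asked what blocking miR-29 does in wild-type cells, and no replication gene was called. Of the 38, 24 had a negative fold change, the range was -0.41 to 0.12 and the median -0.03, against 0.02 over all genes. Limma called 0 of the 38 and 0 of all 14745 genes (0%), on group means and with the mouse as a block. Unadjusted p-values below 0.05 were found for 0 replication genes and 61 of all genes. The mice did not share a direction, with medians of 0.02, -0.22 and 0.10 in mice 2, 3 and 4, and wild-type mouse 3 was the one read on the second scan day. Orc6 and Pola1 were lower in all 3 wild-type mice and Prim2 was higher in all 3, and 8.88% and 14.6% of all genes were.

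The gene with the smallest p here was Ccne2, at -0.41 ± 0.46, whose differences were -0.76, -0.50 and 0.02 in mice 2, 3 and 4. Cdc6 (-0.18 ± 0.23), Orc1 (-0.22 ± 0.41), Mcm4 (-0.09 ± 0.16), Gins3 (-0.09 ± 0.15) and Pcna (-0.08 ± 0.18) followed, each with an adjusted p of 1 in limma. The inhibitor and control arrays overlapped for all 38 genes, while 1.15% of all genes had groups apart with the inhibitors lower and 1.66% higher. Rfc5 had a fold change of -0.0031 with a 95% interval of -0.40 to 0.40, so a change of the size seen with miR-29b lay outside the interval. For E2f1 the interval of -1.33 to 1.32 left changes in either direction within reach of these arrays.

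**Figure D4:**
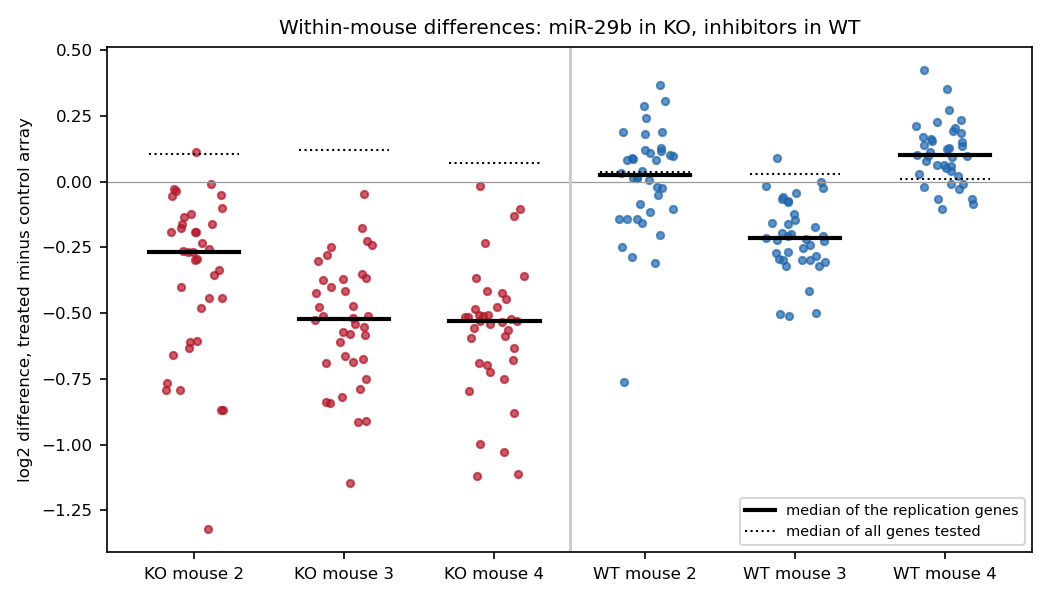
Difference of treated minus control array within each mouse for the replication genes (points, log2), with their median as a solid line and the median of all genes as a dotted line. Medians are -0.27, -0.52 and -0.53 in Dgcr8-deficient mice 2, 3 and 4, and 0.02, -0.22 and 0.10 in wild-type mice 2, 3 and 4.

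Whether the effects of miR-29b and of its inhibitors differ was tested as the difference between them. miR-29b was given only to Dgcr8-deficient cells and the inhibitors only to wild-type cells. Agent, control oligonucleotide and genotype therefore cannot be told apart in this difference. The miR-29b effect was the lower in 37 of the 38 genes, with a median difference of -0.43. Over all genes it was the lower in 39.8%, with a median of 0.09. Among the 38 Gins2 was the exception. Orc6 was a further exception under normexp correction and in the authors' deposited table, and median scaling left 0. On group means 0 of 38 passed (0.142% of all genes did so in this direction). Rfc5 and Rfc3 had unadjusted p-values below 0.05, as did 7.10% of all genes. In the blocked fit 5 genes passed as lower, where 3.5% of all genes did so and 2.56% passed as higher. The 5 were Rfc5, Cdt1, Pole2, Mcm10 and Rpa2. Rfc5 differed by -1.08 ± 0.26 on group means (adjusted p = 0.165, blocked 0.0254). Cdt1, at -0.88 ± 0.42, had an adjusted p of 0.751 on group means and 0.0286 in the blocked fit. Mcm5 (-0.82), Rfc3 (-0.72), Tk1 (-0.46) and Mcm4 (-0.40) passed in neither fit. Without both arrays of Dgcr8-deficient mouse 3 the blocked fit called 2 of the replication genes lower, Cdt1 and Rfc5 (2.69% of all genes). Without mouse 2 it called 0 (0.332% of all genes), and without mouse 4 it called 0 of the replication genes and 0 of all genes.

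The third comparison set Dgcr8-deficient against wild-type control cells, and 4 replication genes passed the threshold, all lower. It shares its control arrays with the comparisons above. The control oligonucleotide was a miRNA in one genotype and an inhibitor in the other, so genotype and oligonucleotide cannot be told apart. Gins3, Rfc5, Gins4 and Rrm2 were lower in Dgcr8-deficient cells and 0 of the 38 were higher. That is 4 of 38, against 12.6% of all genes called lower and 9.23% called higher. The median fold change was -0.34, with 32 of 38 negative (28 under quantile normalization, normexp correction and the authors' deposited table), and the median of all genes was -0.08. Relative to the median of all genes under each scaling, 26 to 29 of the 38 were below it.

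Gins4, a second GINS subunit, had levels of 1.92, 1.80 and 1.38 in Dgcr8-deficient cells with miR-29b and 2.08, 1.98 and 1.80 with the control. Gins4 in wild-type cells was at 3.08, 3.02 and 3.24 with inhibitors and 3.04, 3.06 and 3.10 with control inhibitors. All 6 Dgcr8-deficient arrays lay below all 6 wild-type arrays for Gins4. Rrm2, the regulated subunit of ribonucleotide reductase, had levels of 2.71, 2.37 and 2.08 with miR-29b and 2.94, 2.88 and 2.44 with the control. Its wild-type levels were 3.71, 3.55 and 3.57 with inhibitors and 3.53, 3.87 and 3.64 with control inhibitors. Rrm2 also separated the genotypes on all arrays. Fold changes between controls were -1.11 ± 0.15 for Gins3 (2.15-fold lower, adjusted p = 0.000555), -1.28 ± 0.18 for Rfc5 (2.42-fold, 0.000746), -1.12 ± 0.17 for Gins4 (2.17-fold, 0.00123) and -0.92 ± 0.21 for Rrm2 (1.90-fold, 0.00888). Gins3, Gins4 and Rfc5 passed under all 29 alternatives and Rrm2 under 28, the exception being the fit without both arrays of wild-type mouse 4 (adjusted p = 0.0509).

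Tyms, which makes thymidylate, had levels of 4.53, 3.84 and 3.47 in Dgcr8-deficient cells with miR-29b and 4.54, 4.21 and 3.83 with the control, against 5.10, 4.83 and 5.01 in wild-type cells with inhibitors and 5.02, 4.84 and 5.03 with control inhibitors. The genotypes did not overlap. Tyms (-0.77 ± 0.27) and Prim2 (-0.65 ± 0.22) had adjusted p-values of 0.0671 and 0.0651 on group means and 0.0496 and 0.0463 with the mouse as a random block. That fit called 6 of 38 lower and 0 higher, against 11.7% and 8.57% of all genes. In total 12 of the 38 genes had control groups that did not overlap, all lower in Dgcr8-deficient cells, where 21.9% of all genes did and 14.9% did with Dgcr8-deficient cells higher. Besides those named they were Orc6, Cdc45, Gins2, Prim1, Pcna and Rfc4. The other helicase subunits did not follow: Mcm2 to Mcm6 had fold changes of -0.25, 0.03, -0.22, -0.01 and 0.18.

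Of 4 slides, 2 held both genotypes. On slide 1, with mouse 2 of both, the median difference between controls was -0.18 and 24 of 38 genes were lower in Dgcr8-deficient cells. The median of all genes was also -0.18, and 61.1% of all genes were lower. On slide 3, the second scan day, with Dgcr8-deficient mouse 4 and wild-type mouse 3, the median was -0.67 and 36 of 37 genes were lower. Over all genes the median there was -0.10, and 56.1% were lower. On both slides 24 genes were lower, where 46.5% of all genes were. Rfc5 differed by -1.01 and -1.68, Gins3 by -1.20 and -1.22, Gins4 by -0.97 and -1.27, and Rrm2 by -0.58 and -1.42 on slides 1 and 3. E2f1, at 0.11 and -0.75, and Mcm2, at 0.05 and -0.74, turned sign between slides. With slide as a block 13 of 38 passed, counting both directions, where 6314 of 14745 genes passed and 26.6% were called lower. With scan day 16 of 38 passed, again counting both directions, where 5847 of 14745 genes passed and 24.1% were called lower. The 4 B cell markers given above were higher in Dgcr8-deficient than in wild-type controls (log2 fold changes of 1.44 to 5.86). The NK cell marker Klrd1 was lower (-2.55 ± 0.54, limma adjusted p = 0.00656), while Ncr1, Klrb1c and Klra8 had fold changes of 0.80 to 1.99 and did not pass. Of the 7 helper T cell markers 6 had a negative fold change, Lck passed (-0.67 ± 0.20, adjusted p = 0.0386), and their sum was 302 to 331 in Dgcr8-deficient controls, against 384 to 487 in wild-type controls. The part of these markers in the genotype differences was not tested.

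**Figure D5:**
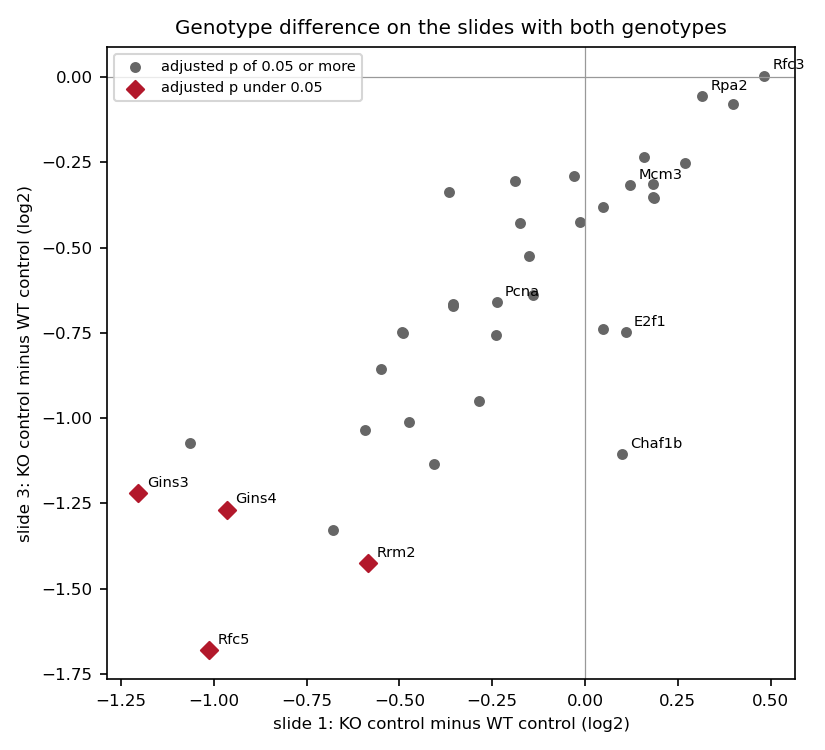
Difference between Dgcr8-deficient and wild-type control arrays on slide 1 (horizontal) and slide 3 (vertical) for each replication gene, in log2. Rfc5, Gins3, Gins4 and Rrm2, past the threshold, lie low on both slides, while most other genes lie lower on slide 3 (median -0.67) than on slide 1 (median -0.18).

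Further genes of the pathway were counted over lists. Of 37 other replication factors, 2 fell and 1 rose with miR-29b on group means, the median was -0.25 and 32 were negative, and in the blocked fit 14 fell and 2 rose, against 9.39% and 13.1% of all genes. Dscc1, a subunit of the clamp loader for cohesion, fell (-1.20 ± 0.17, adjusted p = 0.00871), and so did Asf1b, a histone chaperone (-0.81 ± 0.17, 0.0401). Dscc1 had levels of 1.01, 0.62 and 0.77 with miR-29b and 2.24, 1.79 and 1.97 with the control, against 2.16 to 2.41 on the 6 wild-type arrays. Pold4, the small subunit of polymerase delta, rose with miR-29b (1.03 ± 0.18, 0.0178), with levels of 1.35, 1.85 and 1.57 with miR-29b, against 0.40, 0.74 and 0.53 with the control. In the genotype comparison Pold4 was lower in Dgcr8-deficient controls (-1.03 ± 0.18, adjusted p = 0.00217), and 8 of the 37 factors fell there and 0 rose, against 12.6% and 9.23% of all genes. The others were Pole3, Pole4, Rnaseh2a, Ticrr, Rpa1, Dut and Dbf4, with fold changes of -1.39 to -0.74. No member of this list was called with the inhibitors.

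Of 12 genes of the E2F and RB family, 0 passed with miR-29b on group means and 3 fell in the blocked fit (9.39% of all genes, the background of the blocked counts below too), and E2f8, a repressor of the family, had the smallest p (-0.94 ± 0.32, adjusted p = 0.184). Between the genotypes' controls E2f7, another repressor, was higher in Dgcr8-deficient cells (0.73, adjusted p = 0.0176), and E2f5, Tfdp1, Tfdp2 and Rbl2 were lower (-1.53 to -0.87). Of 12 measured G1/S cyclins, kinases and inhibitors, Ccna2, cyclin A2 (-0.67 ± 0.14, 0.0386) and Cdkn2c, an inhibitor of Cdk4 and Cdk6 (-0.72 ± 0.15, 0.0415), fell with miR-29b on group means, 5 fell in the blocked fit, and Ccnd1 and Skp2 were not measured here. Of 12 mitotic genes 1 fell, the kinase Aurkb (-0.70 ± 0.15, 0.0443), 10 were negative, the median was -0.38 and 6 fell in the blocked fit. Between the genotypes' controls the mitotic median was 0.22, with the kinase Cdk1 higher in Dgcr8-deficient cells (0.54, adjusted p = 0.0206) and 0 called in the blocked fit, and the D cyclins Ccnd3 (1.96 ± 0.24, 0.000349) and Ccnd2 (1.59 ± 0.27, 0.00192) and the cell cycle inhibitor Cdkn1a (1.29 ± 0.20, 0.00121) were higher in Dgcr8-deficient cells, while Cdk4 was lower (-0.97 ± 0.17, 0.00236).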

How the data were processed

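RNA of helper T cells was hybridised to 1-colour Agilent arrays, 12 in all, 3 per group. Per the file headers, the deposited intensity values are processed signals of Feature Extraction. The authors also deposited a log2 table, used as an alternative, and the submitters' processing notes name limma. Signals were taken to log2 and the 75th percentile of each array was subtracted. Spots marked as outliers were left out, spots of a probe averaged, and probes kept if well above background on at least 3 arrays. Accessions gave 24844 probes a RefSeq symbol and left 16330 without, and the brightest probe stood for a gene. Limma 3.58.1 (R 4.3.3) fitted the 4 groups together over 14745 genes, with Benjamini-Hochberg adjustment and a threshold of 0.05. It was also run on simulated data. The simulated arrays were independent and did not hold the pairing of the real ones, so that run cannot judge its effect. The number of arrays limits the precision. The replication genes and the other lists were chosen with earlier results of these data known. All 39 genes were to be named, with values on every array for those past the threshold, the 6 with the smallest p in each comparison, and Mcm2, Pcna, Rrm2 and E2f1. Arrays of Orc1, Mcm10, Pole2, Rpa2 and other genes were added after their values were seen. Genes of other lists were named if past the threshold or among the 3 smallest p of a list.

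The study's design text says that cells of each Dgcr8-deficient mouse were given both agents. Equal numbers within a genotype were therefore taken to mark 1 mouse, in the wild type too. Deviations from group means correlated at 0.652, 0.613 and 0.753 over the Dgcr8-deficient pairs and 0.468, 0.722 and 0.430 over the wild-type pairs (14187 genes). The arrays of a pair also shared a slide and a scan day, so these correlations cannot show a shared mouse. Mouse was a fixed block within a genotype and a random block (correlation 0.768) between genotypes. Other alternatives were quantile and median scaling, normexp correction (offset 50, on median signals, since mean signals were not used here), other filters and probe rules, slide and scan day as blocks, and leaving out arrays or mice. Leaving out both arrays of mice other than Dgcr8-deficient mouse 3, and each mouse from the blocked fits, was chosen after seeing the data.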

Additional observations from a re-analysis of the deposited data

Results flagged for a closer look

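The effect of miR-29b in Dgcr8-deficient cells and that of the inhibitors in wild-type cells differed for 5 replication genes in limma's interaction test with the mouse as a block. In that fit 3.5% of all genes were called lower and 2.56% higher. The difference, miR-29b effect minus inhibitor effect, was -1.08 ± 0.16 for Rfc5 (adjusted p = 0.0254) and -0.88 ± 0.14 for Cdt1 (0.0286). It was -0.82 ± 0.15 for Pole2 (0.0385), -0.77 ± 0.14 for Mcm10 (0.0388) and -0.68 ± 0.13 for Rpa2 (0.0407). None of the 5 passed on group means. Agent and genotype cannot be told apart in this test, because each agent was given to cells of a different genotype. Without both arrays of Dgcr8-deficient mouse 2 none passed in the blocked fit, which then called 49 of all genes lower and 17 higher, and without mouse 4 it called 0 of all genes. Without mouse 3 the blocked fit called 2 of the 5, Cdt1 and Rfc5, where 2.69% of all genes were called lower.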

How the results depend on the processing

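With 3 mice a group, group means resolved few replication genes. For miR-29b, the 324 genes called became 194 under median scaling, 641 with normexp, 568 in the authors' table, 3310 with the mouse as a replicate block, 2680 with slide and 1929 with scan day as a block, and 0 on the comparison's arrays alone. The replication genes called, 1 on group means, were 3, 3, 19, 16, 13 and 0 under normexp, the authors' table, mouse block, slide block, scan day block and arrays alone. Without both arrays of Dgcr8-deficient mouse 3, 2 or 4 or wild-type mouse 2 or 4, 115, 9, 0, 57 and 94 genes and 0 replication genes were called. The replication median was -0.67 under median scaling. Leaving out 1 array gave 84 to 286 genes, 0 to 1 replication genes and medians of -0.66 to -0.21. The share of higher calls, 46.0%, was 35.8% under quantile, 13.9% under median scaling, 58.2% with the mouse block and 57.3% with the slide block.

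For the inhibitors 0 genes were called throughout, with leave-one-out medians of -0.10 to 0.12. Between genotypes, 3226 genes became 6314 with slide and 5847 with scan day as a block, and 1907 and 1873 without wild-type mouse 2 or 4. The 4 replication genes became 13 with slide and 16 with scan day as a block, while the calls over all genes rose to those 6314 and 5847. Without Dgcr8-deficient mouse 2 they became 7, and the count over all genes in that fit is not given here. Leaving out 1 array gave 2325 to 3390 genes, 4 to 7 replication genes and medians of -0.52 to -0.15. For the difference of effects, 23 genes became 39 (quantile), 9 (median scaling), 108 (normexp), 91 (authors' table), 12 (no filter), 55 (above background on all 12), 5 (mean of probes), 893 (mouse block), 588 (slide) and 343 (scan day). Without Dgcr8-deficient mouse 3, 2 or 4 or wild-type mouse 2, 3 or 4 there were 15, 0, 0, 0, 2 and 0. Its 0 replication genes became 5, 2 and 2 with mouse, slide and scan day blocks. Leaving out 1 array gave 3 to 46 genes, 0 replication genes and medians of -0.65 to -0.20.

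With miR-29b E2f1 turned sign without control 2 (0.14), control 3 (0.0067) or miR-29b array 4 (0.26), over a leave-one-out range of -0.78 to 0.26. With inhibitors Orc1 ranged between -0.37 and 0.043 and Pcna between -0.16 and 0.015 (0.0018 without wild-type mouse 3). Between genotypes Mcm2 ranged between -0.46 and 0.026 and E2f1 between -0.62 and 0.29, and both turned without Dgcr8-deficient control 4 or that mouse. The cause was not tested. For the replication genes, the mouse block changed no call beyond those given in the report.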
